A study of Mus musculus with 4 samples.

Results

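The E2F transcription factors and the retinoblastoma (Rb) proteins that bind them were examined for occupancy by Eya1 in the embryonic mouse kidney. The members were the 10 genes of a given list, E2f1 to E2f8, Rb1 and Rbl1, out of 21938 protein-coding genes on the nuclear chromosomes in the GENCODE annotation. All 10 were found in the annotation. They comprised 3 activator E2f genes (E2f1, E2f2 and E2f3), 5 repressor E2f genes (E2f4 to E2f8) and 2 Rb family genes (Rb1 and Rbl1).

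The measurements were chromatin immunoprecipitation followed by sequencing (ChIP-seq) of Eya1, a coactivator and phosphatase that reaches DNA through partner proteins. Whole kidneys were taken at E13.5 from Eya1HA-FLAG embryos, in which a knockin allele adds HA and FLAG tags to Eya1, and 80 kidneys were pooled for each assay. Of the 4 samples, 2 were Eya1 replicates immunoprecipitated with FLAG beads, 1 was input chromatin and 1 was an IgG control, all carrying the same tagged allele. The copy number of that allele in the embryos was not given in the sources used here. Values for input chromatin and IgG were not used here, so no control level is given beside the Eya1 peaks. The methods describe calling peaks against these controls, but which control each list rests on is unknown. The mice were kept on a mixed C57BL/6J and 129/Sv background. Because whole kidneys were pooled, strong occupancy in few cells and weak occupancy in many cannot be told apart, and peak lists hold no expression with which to check the tissue.

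E2F proteins bind DNA with a DP partner and govern the genes that carry a cell from G1 into S phase. The activators are held inactive by Rb1 until cyclin-dependent kinases phosphorylate it. E2f4 and E2f5 repress with the pocket proteins Rbl1 and Rbl2, E2f6 works with a Polycomb complex, and E2f7 and E2f8 repress with no need of DP or pocket proteins. Several E2f genes carry E2F sites in their own promoters. In the kidney, division and exit from the cycle are among the processes that bear on how long nephron progenitors persist.

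Each Eya1 replicate had a peak list of its own. A promoter peak of a gene was one with any base at most 1 kb from a transcription start site (TSS) of the gene. Replicate 1 held 4041 promoter peaks, with widths of 171 to 5380 bp and a median of 1099 bp. Replicate 2 held 3534, and their median was far lower at 199 bp, with widths from 117 to 1414 bp. Widths were therefore compared within a list and not between lists. A peak absent from a list may have missed a cutoff, and since the lists carry no score or read count, how near it came is unknown.

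The sequences that matter most for this family are the E2F sites near its own promoters, printed here because they show which of them lay under an Eya1 peak. The site was searched on both strands in 4 spellings, TTTCCCGC, TTTGGCGC, TTTCGCGC and TTTGCCGC. The window ran 500 bp to either side of the 5′ end of the 7 members with an entry in the RefSeq promoter table (E2f1, E2f2, E2f3, E2f6, E2f7, E2f8 and Rbl1). Each line gives 30 bases of GRCm38 (mm10), 5′ to 3′ on the strand of the gene, with the E2F sites in capitals.
E2f1, chr2:154569864-154569893, minus strand: ctttcGCGGCAAAaaggaTTTGGCGCgtaa
E2f2, chr4:136172302-136172331, plus strand: gcggcatatagTTTGGCGCtaaaaaaaaaa
E2f3, chr13:29986056-29986085, minus strand: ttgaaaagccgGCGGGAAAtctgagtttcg
E2f7, chr10:110745230-110745259, plus strand: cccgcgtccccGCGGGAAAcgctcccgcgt
E2f8, chr7:48881322-48881351, minus strand: gaaggcggccgTTTCCCGCctcccgccccg
E2f8, chr7:48881193-48881222, minus strand: tcccgctttccGCGCCAAAtttttaaatcg
Rbl1, chr2:157204534-157204563, minus strand: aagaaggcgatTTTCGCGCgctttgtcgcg
Rbl1, chr2:157204111-157204140, minus strand: tttggattgagGCGGGAAAccgaagatcgg

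Of these 7 genes, 6 had at least 1 E2F site in this window, compared with 7.13% of all protein-coding genes (1565 of 21938). E2f6 had 0. Only the 2 sites of E2f1, 4 to 11 bp and 17 to 24 bp downstream of its 5′ end, lay inside a listed peak. The nearest listed peak was 17 bp from the closer E2f8 site and 438 bp from the E2f3 site. For E2f2, E2f7 and Rbl1 it was at least 25882 bp away. A match is a property of the sequence and does not measure E2F binding.

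Eya1 promoter peaks were listed at 6 of the 10 members, at E2f1, E2f3, E2f4, E2f5, E2f6 and E2f8, where 23.5% of all protein-coding genes had one (5151 of 21938). E2f2, E2f7, Rb1 and Rbl1 had 0 in either list. Each of the 6 genes had its peaks in 1 list only. E2f1, E2f4, E2f5 and E2f6 were found in replicate 1 (4 of 10, against 20.3% of all protein-coding genes), and E2f3 and E2f8 in replicate 2 (2 of 10, against 14.7%). The number found in both lists was 0, where 11.5% of all protein-coding genes were in both. Among the 5151 genes with a promoter peak in either list, 48.9% had one in both. Leaving out replicate 1 left 2 of the 10 members and leaving out replicate 2 left 4, so each count rests on a single library. The list of members was drawn up with earlier results of these data known and genes are not replicates, so these counts carry no test.

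**Figure D1:**
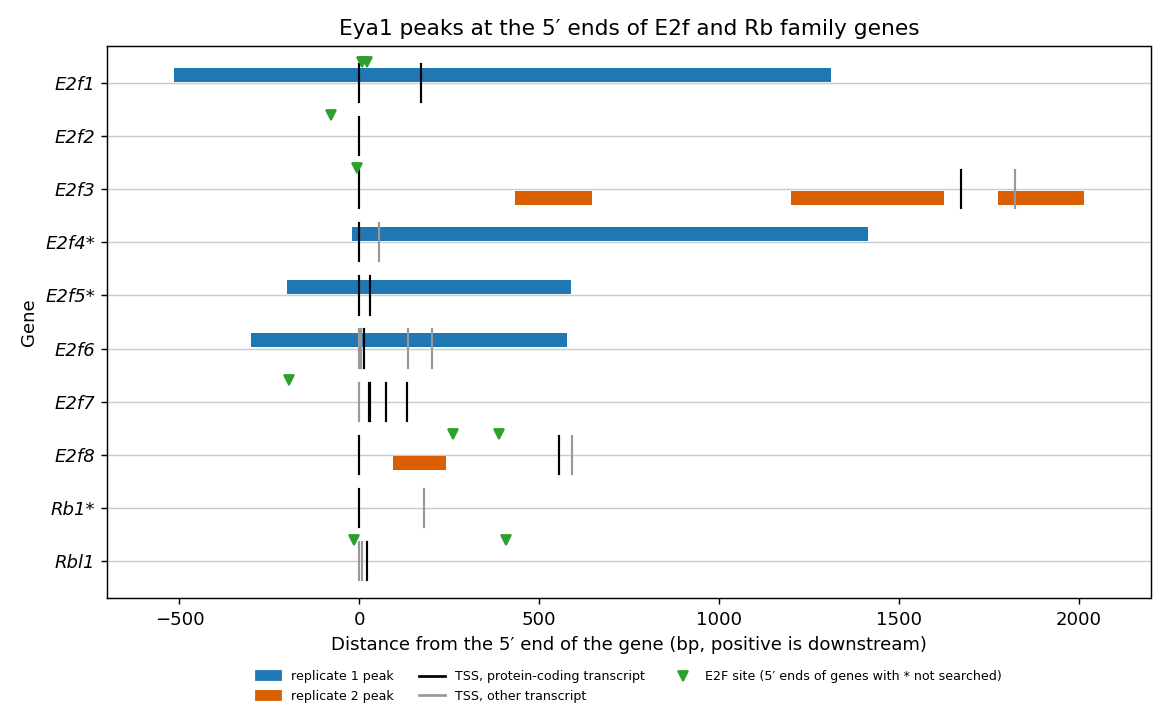
Eya1 peaks at the 10 genes, by distance from the 5′ end of each gene in bp. Blue bars are replicate 1 peaks, orange bars replicate 2 peaks, black and grey ticks the TSSs of protein-coding and other transcripts, and green triangles E2F sites (the 5′ ends of genes with an asterisk were not searched). The 4 replicate 1 peaks covered the 5′ end, while the 3 replicate 2 peaks of E2f3 lay 434 to 2013 bp downstream of it.

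Among the activators, E2f1, which drives S-phase genes and is held in check by Rb1, had a promoter peak in replicate 1 and none in replicate 2. Its peak (chr2:154568581-154570408) was 1828 bp wide, wider than 87.3% of the promoter peaks of that list. It covered both annotated E2f1 TSSs, with 516 bp outside the gene, 826 bp of exon (357 bp of coding sequence) and 486 bp of intron. The nearest replicate 2 peak was 87.2 kb upstream, at Chmp4b. The 200 bases of the peak directly before the 5′ end of E2f1 (chr2:154569893-154570092, minus strand) are shown because they adjoin the stretch with the E2F sites. They hold 3 CCAAT boxes, the motif of the factor NFY, in capitals (CCAAT or its reverse complement). The whole E2f1 interval of 1828 bp held 5 CCAAT boxes. A CCAAT box was present in 53.9% of all whole promoter intervals obtained by merging both lists, whatever their length. In 300-bp windows on the interval midpoints the share was 16.5%, and the E2f1 window held 0. No share was counted for stretches of 200 bases.
E2f1: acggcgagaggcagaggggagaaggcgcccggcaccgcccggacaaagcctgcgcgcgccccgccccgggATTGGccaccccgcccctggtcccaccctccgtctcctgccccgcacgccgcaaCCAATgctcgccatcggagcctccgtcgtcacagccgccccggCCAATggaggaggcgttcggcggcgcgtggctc

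E2f3, classed here with the activators, showed the reverse pattern, with 3 promoter peaks in replicate 2 and none in replicate 1. The gene has 2 coding promoters. The upstream one gives the long isoform E2f3a, and one in its first intron, 1672 bp downstream, gives the shorter E2f3b. One peak (chr13:29984438-29984862, 425 bp) was wholly intronic for E2f3a and ran from -471 to -47 bp relative to the E2f3b TSS. The next (chr13:29984050-29984288, 239 bp) lay 103 to 341 bp downstream of that TSS, over 161 bp of exon, and covered the TSS of an E2f3 transcript not annotated as protein-coding. The last (chr13:29985417-29985629, 213 bp) lay entirely in coding sequence, 434 to 646 bp downstream of the E2f3a TSS. The peaks were thus set on either side of the E2f3b start, and the E2f3a start with its E2F site lay outside all 3.

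The 3 E2f3 peaks were separated by 149 and 554 bp and together spanned 1580 bp. Of the 3227 protein-coding genes with a replicate 2 promoter peak, 3.07% had at least 3 of them (99 genes), a count looked up after the E2f3 peaks were seen. The widths were above 86.7%, 62.1% and 54.7% of the promoter peaks of that list, in the order of the preceding sentences. The nearest replicate 1 peak was 558.6 kb upstream, at Uqcrfs1. The 204 bases of the E2f3b promoter that lay under the 425-bp peak (chr13:29984438-29984641, minus strand, from the RefSeq table for GRCm38.p6) had 0 E2F sites and held 3 GC boxes (GGGCGG, the motif of SP factors), in capitals.
E2f3: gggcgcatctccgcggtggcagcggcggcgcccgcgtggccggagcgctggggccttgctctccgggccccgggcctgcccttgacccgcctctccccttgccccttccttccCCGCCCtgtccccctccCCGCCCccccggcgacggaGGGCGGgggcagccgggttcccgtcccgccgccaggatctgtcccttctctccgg

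E2f2, the third activator, had 0 peaks within 1 kb of a TSS and 0 in its gene body in either list. The nearest peaks of both lists were at the neighbouring gene Id3, 26 kb upstream in replicate 1 (2737 bp wide) and 28.1 kb upstream in replicate 2 (381 bp wide). Id3, an inhibitor of basic helix-loop-helix factors, was thus found in both lists and E2f2 in neither.

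Among the repressors, E2f4 and E2f5, which act with the pocket proteins in resting and differentiating cells, each had a replicate 1 promoter peak and none in replicate 2. The E2f4 peak (chr8:105297644-105299077) was 1434 bp wide, wider than 73.5% of promoter peaks in its list. It began 19 bp before the TSS and ran 1414 bp into the gene, over 728 bp of exon and 687 bp of intron. Only 1.32% of its width was upstream of the TSS. The E2f5 peak (chr3:14578440-14579229) was 790 bp wide, wider than 22.9% of promoter peaks, and ran from -231 to 558 bp relative to the TSS of a protein-coding E2f5 transcript. The nearest replicate 2 peak was 1605 kb from E2f5, at Ythdf3.

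E2f6, which silences genes with a Polycomb complex, also had a promoter peak in replicate 1 alone (chr12:16810663-16811540). At 878 bp it was wider than 30.5% of promoter peaks in that list and covered 5 of the 7 annotated E2f6 TSSs, with 300 bp outside the gene. The nearest replicate 2 peak was 70.4 kb away, at Rock2. The part of the E2f6 promoter before its first TSS (chr12:16810715-16810962, plus strand, RefSeq table, GRCm38.p6) is shown because, of the 7 genes searched at the 5′ end, E2f6 alone had 0 E2F sites there. It held 2 ETS motifs (CCGGAA), in capitals.
E2f6: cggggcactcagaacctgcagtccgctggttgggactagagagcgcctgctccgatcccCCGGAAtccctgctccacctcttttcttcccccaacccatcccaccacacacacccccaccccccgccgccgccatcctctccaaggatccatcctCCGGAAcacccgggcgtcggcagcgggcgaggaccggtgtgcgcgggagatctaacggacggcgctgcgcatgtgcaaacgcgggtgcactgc

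The atypical repressors E2f7 and E2f8, which switch off E2F targets late in S phase, differed from each other. E2f8 had a replicate 2 peak of 147 bp (chr7:48881357-48881503), wider than 24.7% of promoter peaks in that list, and none in replicate 1. It covered no annotated TSS and lay 93 bp downstream of the upstream coding TSS of E2f8 and 316 bp from the downstream one, over 96 bp of UTR and 51 bp of intron. The nearest TSS, 57 bp away, belonged to Gm2788, an antisense noncoding gene, so the peak was no longer counted for E2f8 when each peak went to the gene of the nearest TSS. It was also lost when a peak had to cover a TSS. The nearest replicate 1 peak was 1917 kb from E2f8. E2f7 had 0 peaks in its promoter or gene body in either list.

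The contrast of activators and repressors gave 2 of 3 activators and 4 of 5 repressors with a promoter peak. In replicate 1 these were 1 of 3 activators and 3 of 5 repressors, and in replicate 2 they were 1 of 3 and 1 of 5. The shares over all protein-coding genes were 23.5% in either list, 20.3% in replicate 1 and 14.7% in replicate 2, and with so few genes a count of 1 lies near them. In replicate 1 the activator peak was the widest of the 4, at 1828 bp against 1434, 790 and 878 bp for E2f4, E2f5 and E2f6. In replicate 2 the activator peaks were 213, 239 and 425 bp wide and the repressor peak 147 bp. The activator peak was thus wider in each list, but each list compares a single activator gene with at most 3 repressor genes. No test of this contrast was possible, since genes are not replicates and both lists belong to 1 group. In every gene it rested on 1 library.

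**Figure D2:**
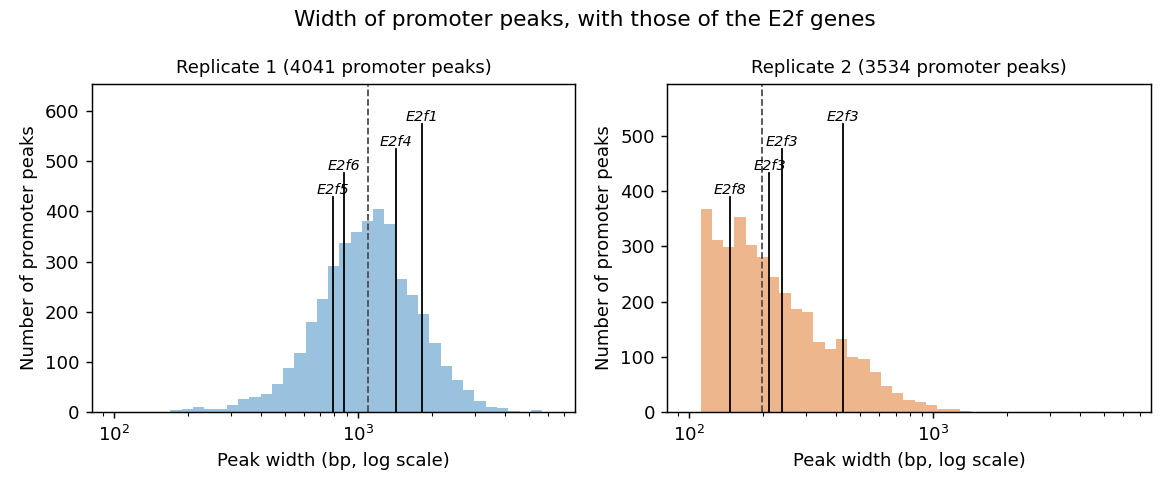
Width of promoter peaks in bp on a log scale, with the number of peaks on the y axis, for replicate 1 (left) and replicate 2 (right). Black lines mark the peaks of the named E2f genes and dashed lines the medians of 1099 and 199 bp. In replicate 1 E2f1 and E2f4 lay above the median and E2f5 and E2f6 below it, and in replicate 2 the E2f3 peaks lay above it and E2f8 below it.

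The Rb family members had no peak. Rb1, the tumour suppressor that restrains the activators, spans 142150 bp on chromosome 14 (73183673 to 73325822) and had 0 peaks anywhere in it. Its nearest peaks were 58.7 kb upstream in replicate 1 (934 bp wide) and 59.1 kb upstream in replicate 2 (130 bp wide), both at Itm2b. Rbl1, which encodes the pocket protein p107 and pairs with E2f4 and E2f5, had 0 peaks across its 58642 bp on chromosome 2. The nearest were 74.5 kb upstream in replicate 1, at Rpn2 and Mroh8, and 113.2 kb downstream in replicate 2, at Soga1. Rbl2, the other pocket protein and not among the 10 members, had a replicate 1 promoter peak of 647 bp and none in replicate 2.

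**Figure D3:**
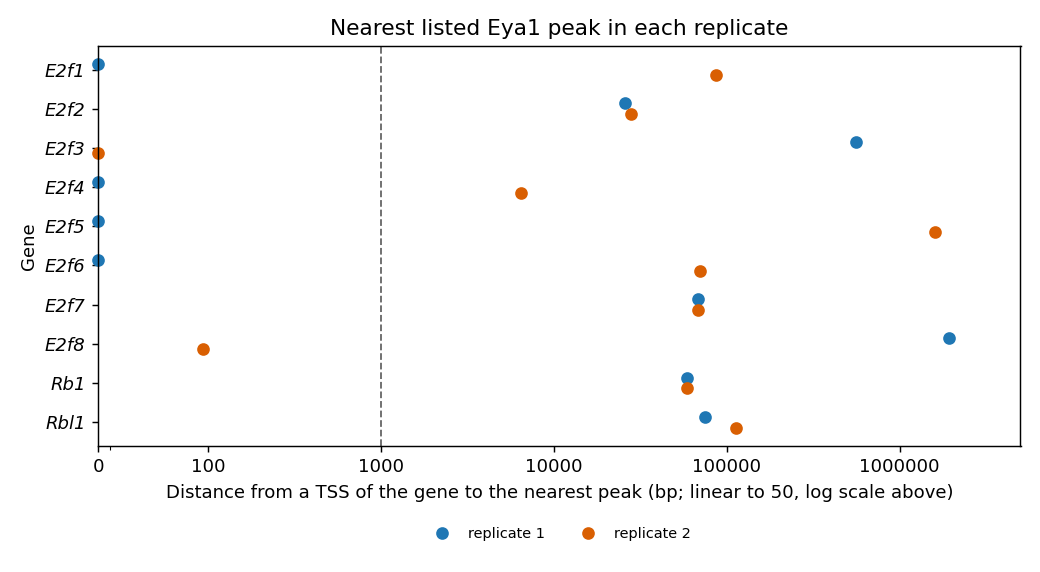
Distance in bp from the TSSs of each gene to the nearest listed peak, for replicate 1 (blue) and replicate 2 (orange), on an axis that is linear to 50 bp and logarithmic above. The dashed line is the 1 kb limit. For each gene with a promoter peak in a list, the nearest peak of the other list was at least 6.49 kb away.

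Gene bodies added no further member. The same 6 of 10 members had a peak overlapping the gene interval, where 23.8% of all protein-coding genes had one (5232 of 21938). All 8 of these peaks were the promoter peaks already described. None of the 10 genes had a peak in its interval farther than 1 kb from its own TSSs, compared with 1.97% of all protein-coding genes. Of the peaks inside the 1 kb limit, the one farthest from a TSS of its gene was the E2f3 peak at 434 bp. The closest peak outside it was 6487 bp from E2f4.

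That peak, in replicate 2 only (chr8:105291022-105291176, 155 bp), lay upstream of E2f4 within Exoc3l, had no TSS within 1 kb and held a match to RE1, the element that the repressor REST recognises. The nearest peaks to E2f7 also held one, and they were found in both lists, 68.6 kb upstream in intergenic sequence (chr10:110676571-110676842 in replicate 1 and chr10:110676619-110676792 in replicate 2). RE1 was searched with at most 2 mismatches. The E2f4 element had 2 mismatches and lay 19 bp from the peak midpoint. The E2f7 element had 1 and lay 1.5 bp from the replicate 1 midpoint and 0.5 bp from that of replicate 2. Each line shows 30 bases with the 17 bases of the element in capitals, at chr8:105291066-105291095 (plus strand) and chr10:110676691-110676720 (minus strand). These peaks are placed by distance, which does not make E2f4 or E2f7 their target. The share of all distal peaks with an RE1 match was not counted, so the matches are not read as particular to these peaks. The paper reports the REST motif in most Eya1 sites that lack the active histone mark H3K27ac.
upstream of E2f4: tgtgacTTCAGGACCAAGGCCAAggctcgc
upstream of E2f7: tacagaaATCAGCACCATGGACAGcagatc

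At the promoters themselves, RE1 matches numbered 0 in all 8 promoter intervals of the members, compared with 13.8% of the 4833 promoter intervals obtained by merging both lists. An E2F site was present in the interval of E2f1 and in none of E2f3, E2f4, E2f5, E2f6 and E2f8, compared with 11.6% of all merged promoter intervals. GC boxes were present in 7 of the 8 intervals, with 15 in E2f1, 4, 1 and 2 in those of E2f3, 3 each in E2f4 and E2f5 and 2 in E2f6, compared with 85% of all merged promoter intervals. ETS motifs were found in E2f4, E2f5 and E2f6 and not in E2f1, E2f3 or E2f8, compared with 47.9%. Longer intervals hold more matches, and member intervals ran from 147 to 1828 bp. The G and C content of the 8 intervals ranged from 60.5 to 79.1%.

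In the RefSeq table of 300-base promoters (250 bases before to 50 after the start), 7 of the 10 members matched, with 9 promoters in all. An E2F site was present in 2.26% of all 32851 promoters and in those of E2f2 (1 of its 2), E2f3 (the E2f3a promoter), E2f7 and Rbl1. None of these 4 windows overlapped a listed peak. The RefSeq start of E2f1 lies downstream of its GENCODE 5′ end, so its window (chr2:154569377-154569676) left out its 2 E2F sites. Those 2 sites (chr2:154569868-154569888) lay inside a replicate 1 peak. The promoters fully or partly under a peak were those of E2f1 (300 bp), E2f6 (300 bp) and E2f3b (204 bp). Their G and C content was 77.3%, 68% and 78.7%, and the median of all promoters was 52.7%. Among the others it ran from 54.7% at E2f2 to 75.3% at E2f7, so the ranges of promoters under a peak and of the rest overlapped.

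A further shared property was the placement of the peaks relative to the start. All 4 replicate 1 peaks extended farther downstream than upstream of the TSS, with 37.6% of the width upstream at E2f1, 35.8% at E2f6, 29.2% at E2f5 and 1.32% at E2f4. This was the general form of that list. Among 2315 replicate 1 peaks that covered a TSS of a single gene, the median share upstream was 30.1% and 83.3% lay mostly downstream. No such share is given for replicate 2, where 1 member peak covered a TSS.

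The other genes of the pathway, taken from lists written with earlier results of these data known, were counted by the same rule. Of 52 genes, 22 had a promoter peak in either list (42.3%), 21 in replicate 1, 13 in replicate 2 and 12 in both. Over all protein-coding genes these shares were 23.5%, 20.3%, 14.7% and 11.5%, and the lists that follow are to be read against them. The 10 members had 6 in either list and 0 in both, and the difference between these shares was not tested.

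In the list of Rbl2 and the DP partners, 3 of 3 genes had a promoter peak, and 1 of them had it in both lists. The pocket protein genes Rb1 and Rbl1, counted among the members, had none. Tfdp1, which encodes the main DP partner of E2F proteins, had a replicate 1 peak of 929 bp and replicate 2 peaks of 296 and 139 bp, Tfdp2 had a replicate 1 peak of 1395 bp, and Rbl2 is given above. The MuvB and DREAM complexes act on cell cycle genes. Of 7 of their subunits and partners, Lin9 and Rbbp4 had promoter peaks in both lists and Foxm1 in replicate 1. Lin37, Lin52, Lin54 and Mybl2 had none. The 2 Lin9 peaks (880 and 151 bp) did not overlap each other, and the Rbbp4 peaks also lay within 1 kb of a Zbtb8os TSS, as the Foxm1 peak did of Rhno1.

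Of 9 genes of the E2f6 Polycomb complex, 5 had a promoter peak, with Rnf2, Ring1 and Cbx3 in both lists and Max and L3mbtl2 in replicate 1. Mga, Pcgf6, Rybp and Wdr5 had none. The peaks of Rnf2, Ring1 and Cbx3 were also within 1 kb of a TSS of other genes, Gm36527 at Rnf2, Hnrnpa2b1 at Cbx3 and, at Ring1, Gm26940, Mir219a-1 and Mir219c in both lists and H2-Ke6 in replicate 1. Of 15 G1 cyclins, kinases and inhibitors, 5 had one, with Ccnd3, Cdk4 and Cdkn2c in both lists, Ccnd2 in replicate 1 and Ccne1 in replicate 2. This share of 33.3% was not far above the 23.5% of all protein-coding genes. The Ccnd2 peak was also within 1 kb of a TSS of 9330179D12Rik. The Cdk4 peaks, at the kinase that phosphorylates Rb1, were 1605 bp wide in replicate 1 and 567 bp in replicate 2. The 18 classical E2F target genes mostly encode replication and nucleotide synthesis proteins, while Cdk1 encodes a cell cycle kinase. Of these 18, 6 had a promoter peak, including Rrm1 and Cdk1 in both lists and Mcm4, Mcm6 and Rrm2 in replicate 1. This was again a share of 33.3%. The Cdk1 peaks were 1377 bp wide in replicate 1 and 352 bp in replicate 2. The Mcm4 peaks were also within 1 kb of a TSS of Prkdc.

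**Figure D4:**
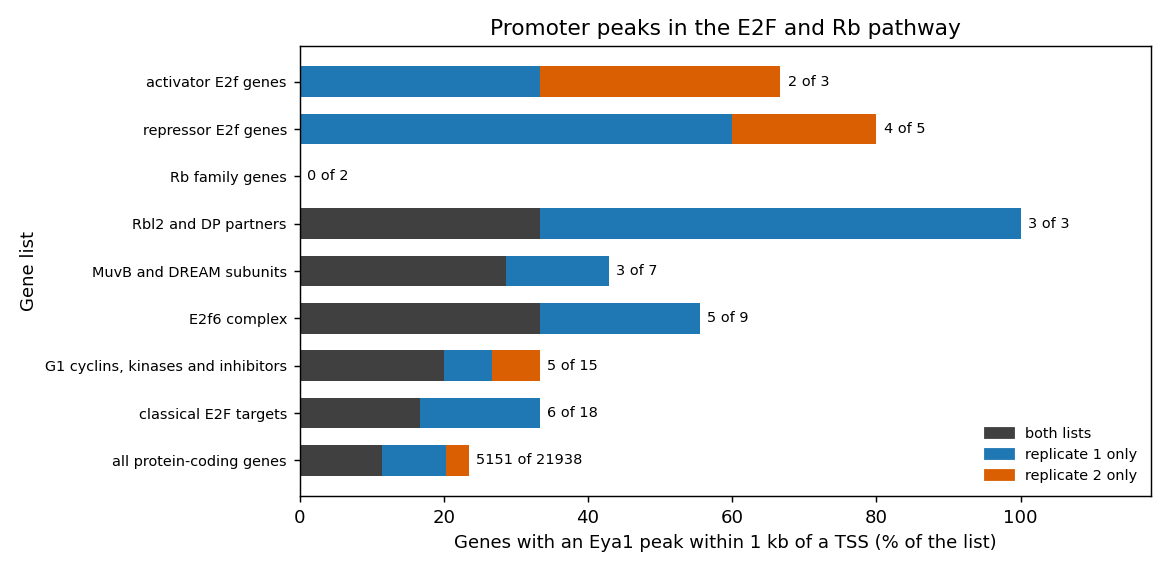
Share of each gene list with an Eya1 peak within 1 kb of a TSS, in percent of the list, divided into genes found in both lists (dark), in replicate 1 only (blue) and in replicate 2 only (orange). The label gives the number of genes. The E2f bars hold no genes found in both lists, the Rb family bar is at 0, and 23.5% of all protein-coding genes had such a peak.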

How the data were processed

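According to the methods, Bowtie aligned the reads to mm10, and MACS called peaks, at cutoffs that varied, once with input and once with IgG as the control. Peaks shared by these calls were kept. The submitters' processing notes also name HISAT2. The deposited lists, 1 for each Eya1 replicate, hold 3 columns of peak positions on mm10 (chromosome, start, end) and no score, p-value or count, so depth, cutoff and control of each list are unknown.

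Positions are printed 1-based. The GRCm38 reference held all nuclear peaks, and mitochondrial peaks were left out. Promoter peaks were intervals within 1 kb of any GENCODE M21 TSS of a gene. Percentiles of width are the share of promoter peaks of the same list that were narrower. Lists were merged where they overlapped by 1 bp, giving 5482 intervals. Motif positions came from the mm10 sequence. Python 3.11.15 with pysam 0.24.0, numpy 2.4.6 and matplotlib 3.10.9 was used, and the steps were tested on simulated data. No statistical test was made. The members, classes and pathway lists were chosen with earlier results of these data known. The rule named the members, other genes with a TSS within 1 kb of their peaks, and listed pathway genes found in both lists. Genes at the nearest distal peaks and pathway genes found in 1 list were named after their values were seen. Alternatives changed the TSS window, the TSS set, the distance rule, peak assignment, motif window and replicate. One listed pathway gene is counted but not reported by name here.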

Additional observations from a re-analysis of the deposited data

How the results depend on the processing

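Of 78 alternative values for 11 results, 68 stayed within 1.5 times the reported count or median width and 10 did not. The counts of 0 members in both lists and 0 Rb family genes were also 0 with TSS windows of 0, 500, 2000 and 3000 bp, both other TSS sets, the midpoint rule and assignment to the nearest gene. Leaving out a replicate gave 2 to 4 members with a promoter peak, 1 activator in either case, 1 to 3 repressors, 2 to 4 members with a gene-body peak and 0 to 1 members with an E2F site in a promoter peak. Replicate 2 members fell from 2 to 1 (E2f8 lost) when a peak had to cover a TSS and when only the nearest gene was counted. Gene-body peaks beyond 1 kb of each TSS numbered 0. The count of members with an E2F site in a promoter peak became 2 with a 300-bp window at the TSS. This is a different count from that of the RefSeq promoters given above. A 300-bp window on the midpoint gave 1, which was E2f8 in place of E2f1. No paired analysis was possible because both lists belong to 1 group. Depth was not recorded, so peaks that missed a cutoff cannot be told from sites without Eya1.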
